A study of Mus musculus with 12 samples.

Results

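The genes described are 6 of the 14143 in the table, named Eya4, Mab21l2, Chrm3, Rorb, Gda and Nupr1, and were looked up by symbol, each of which marks 1 row. They were chosen by their FPKM in earlier results of the same data, which were higher in old than in young mice in both subsets of hematopoietic stem cells (HSCs). HSCs are the rare marrow cells that self-renew and form all blood lineages. RNA was sequenced from HSCs of female C57BL6J mice that were 18 months old or 8 to 10 weeks old per the sample labels, although the protocol text has 8 to 12 weeks for the young. Cells lacking lineage markers, CD48 and CD135 and bearing Sca-1 and c-kit were split by CD150 into My-HSCs (high, myeloid-biased) and Ly-HSCs (low, lymphoid-biased). There were 3 libraries in each of 4 groups, which were old My-HSCs, young My-HSCs, old Ly-HSCs and young Ly-HSCs, and each library came from an independent group of mice per the labels. No mutation, transgene or treatment is named. The old mice came from a National Institute on Aging colony and the young mice from another supplier or a campus colony, so age and colony cannot be told apart. No source used here gives the number of mice behind a library.

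The 6 genes come from unrelated families that are better known outside the blood. Eya4 encodes an eyes-absent protein, a phosphatase that joins DNA-binding proteins of the sine oculis family to activate genes in developing ear, eye and muscle, and Mab21l2 encodes a nuclear protein needed for eye development. Chrm3 encodes the M3 muscarinic receptor, which passes the acetylcholine signal through Gq proteins to phospholipase C and calcium, and Rorb encodes a ROR nuclear receptor of retina and brain that binds DNA at the motif AGGTCA. Gda encodes guanine deaminase, which turns guanine into xanthine in purine breakdown. Nupr1 encodes a small chromatin-associated protein that cells make under nutrient and endoplasmic reticulum stress. HSC ageing is known for a larger HSC pool, a shift towards CD150-high cells and myeloid output.

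All 6 genes lie on the minus strand of the GRCm38 genome, as do 49.3% of the 14139 table genes that matched the GENCODE M21 annotation. Eya4 (ENSMUSG00000010461.14) spans chr10:23102963-23350786, Mab21l2 (ENSMUSG00000057777.4) chr3:86545581-86548629, Chrm3 (ENSMUSG00000046159.15) chr13:9875486-10360847 and Nupr1 (ENSMUSG00000030717.9) chr7:126623249-126630861. Rorb (ENSMUSG00000036192.15), at chr19:18930605-19111196, and Gda (ENSMUSG00000058624.12), at chr19:21391307-21473445, share a chromosome. The promoter windows are shown so that the start regions of the 6 genes, which were chosen for a shared direction with age, can be compared. Each holds the 250 bases before and the 50 bases after a RefSeq start site (GRCm38.p6), 5′ to 3′ on the minus strand, with capitals for the letters matching a motif searched on both strands. The windows are chr10:23349894-23350193 for Eya4, chr3:86548234-86548533 for Mab21l2, chr13:10360754-10361053 for Chrm3, chr19:19111147-19111446 for Rorb, chr19:21472612-21472911 for Gda and chr7:126625421-126625720 for Nupr1. RefSeq lists 2 windows each for Eya4 and Rorb, of which the one farther upstream is shown.
Eya4: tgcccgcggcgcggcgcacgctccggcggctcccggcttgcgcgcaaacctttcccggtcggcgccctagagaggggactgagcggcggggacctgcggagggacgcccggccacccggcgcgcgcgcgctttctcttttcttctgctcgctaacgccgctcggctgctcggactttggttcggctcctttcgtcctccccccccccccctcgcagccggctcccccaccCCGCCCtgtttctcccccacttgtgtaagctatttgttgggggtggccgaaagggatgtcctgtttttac
Mab21l2: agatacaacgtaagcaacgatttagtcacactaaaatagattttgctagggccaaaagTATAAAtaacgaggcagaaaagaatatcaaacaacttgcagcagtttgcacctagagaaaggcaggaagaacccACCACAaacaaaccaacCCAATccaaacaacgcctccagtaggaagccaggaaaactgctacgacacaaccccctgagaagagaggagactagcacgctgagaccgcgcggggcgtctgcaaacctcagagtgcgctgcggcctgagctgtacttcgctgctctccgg
Chrm3: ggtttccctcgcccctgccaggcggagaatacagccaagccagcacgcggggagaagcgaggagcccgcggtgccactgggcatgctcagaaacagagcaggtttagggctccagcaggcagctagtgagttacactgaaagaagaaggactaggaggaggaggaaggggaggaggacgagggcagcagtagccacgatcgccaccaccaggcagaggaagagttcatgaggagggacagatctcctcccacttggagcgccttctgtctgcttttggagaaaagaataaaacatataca
Rorb: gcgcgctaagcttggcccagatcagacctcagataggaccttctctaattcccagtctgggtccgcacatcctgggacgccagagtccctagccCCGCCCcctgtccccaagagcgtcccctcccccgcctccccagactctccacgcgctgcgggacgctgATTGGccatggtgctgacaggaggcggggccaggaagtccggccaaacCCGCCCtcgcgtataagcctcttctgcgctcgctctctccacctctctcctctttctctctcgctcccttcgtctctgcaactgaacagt
Gda: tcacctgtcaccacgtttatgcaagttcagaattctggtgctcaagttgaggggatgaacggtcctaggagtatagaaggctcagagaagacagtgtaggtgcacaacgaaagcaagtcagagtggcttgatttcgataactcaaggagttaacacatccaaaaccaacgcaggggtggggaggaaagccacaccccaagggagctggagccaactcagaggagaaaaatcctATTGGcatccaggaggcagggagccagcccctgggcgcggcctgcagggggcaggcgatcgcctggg
Nupr1: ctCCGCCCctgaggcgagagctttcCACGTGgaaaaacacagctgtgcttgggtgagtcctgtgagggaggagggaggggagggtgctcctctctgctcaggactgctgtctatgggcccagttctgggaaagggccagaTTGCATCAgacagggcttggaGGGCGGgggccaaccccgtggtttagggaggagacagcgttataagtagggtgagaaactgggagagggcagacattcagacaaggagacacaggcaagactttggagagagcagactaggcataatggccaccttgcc

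The 6 start regions had no searched motif in common. Of the 12 motifs, the GC box GGGCGG occurred in Eya4, Nupr1 and Rorb, against 35.7% of 32841 RefSeq windows of this length. The CCAAT box was found in Gda, Mab21l2 and Rorb, against 37.4% of windows, and TATAAA in Mab21l2 alone, against 13.6%. Mab21l2 also held the RUNX motif TGTGGT, present in 16.8% of windows. The Nupr1 window held the E-box CACGTG, found in 7.15% of windows, and the composite C/EBP-ATF motif TGATGCAA, found in 0.895% of windows and lying 110 bases before the Nupr1 start as its reverse complement TTGCATCA. The Chrm3 window held none of the 12 motifs. Searched without a match in any of the 6 windows were the nuclear receptor motif AGGTCA (16.3% of windows), the cAMP response element TGACGTCA (1.79%), the AP-1 motif TGANTCA (7.81%), the GATA motif TGATAA (9.05%), the ETS motif CCGGAA (14.9%) and the C/EBP motif TTGCGCAA (0.183%). No motif overlapped another in these windows. The number of CG pairs ran from 6 in Nupr1 and 9 in Gda, near the median of 7 over all windows, through 11 in Chrm3, 14 in Mab21l2 and 20 in Rorb to 36 in Eya4, more than in 93.8% of windows. These are letters in a window, not evidence of binding.

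Values are FPKM as deposited, which are fragments scaled to transcript length and to the mapped total. With an FPKM, ± gives the SD (n = 3 libraries), and with a difference, which is on the log2(FPKM + 1) scale, the standard error from limma. All 6 genes were among the 10900 that reached 1 FPKM in at least 3 libraries and were tested. FPKM summed to 211455 to 228391 per library, read depth is unknown, and the share of table genes listed at 0 was 12.1% to 18.2% in old My-HSCs, 19.3% to 26.1% in young My-HSCs, 13.3% to 22.3% in old Ly-HSCs and 25.0% to 34.1% in young Ly-HSCs. Of tested genes, 8.53% were at 0 in at least 2 of the 3 young Ly-HSC libraries, against 0.229% in old My-HSCs, so a 0 is given as listed and not as absence. Across genes, libraries of a group correlated at 0.875 to 0.965 in old My-HSCs, 0.817 to 0.887 in young My-HSCs, 0.838 to 0.951 in old Ly-HSCs and 0.706 to 0.789 in young Ly-HSCs. Of 14 listed HSC markers 12 were in the table, with sums of 592 to 662 FPKM in old My-HSCs, 637 to 671 in young My-HSCs, 452 to 507 in old Ly-HSCs and 508 to 662 in young Ly-HSCs, while Kit and Gata2 were not analysed here. Slamf1, which encodes CD150, was at 26.4 to 35.3 FPKM in old My-HSCs against 1.78 to 8.33 in old Ly-HSCs, and at 15.01 to 34.0 in young My-HSCs against 1.39 to 4.87 in young Ly-HSCs, as the sort would have it.

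Old library 1 of each subset stood apart by markers of mature cells. The 7 granulocyte and monocyte markers in the table summed, in library order, to 240.8, 35.7 and 25.7 FPKM in old My-HSCs, against 0.0229, 14.6 and 5.43 in young My-HSCs. The sums were 320.4, 20.9 and 31.4 FPKM in old Ly-HSCs, against 0.416, 15.8 and 33.1 in young Ly-HSCs. Itgam, the CD11b integrin chain, led both first old libraries, at 124.5 FPKM in My-HSCs and 160.0 FPKM in Ly-HSCs. The 6 erythroid markers likewise summed to 70.4 FPKM in old My-HSC library 1 and 95.4 FPKM in old Ly-HSC library 1, against at most 16.9 in the other old libraries and at most 24.4 in any young library. Of the tested markers, 6 of 6 granulocyte and monocyte genes were higher in old than in young libraries in each subset, and none passed the test. Of the 6 genes, Nupr1 was lowest among the old libraries of each subset in library 1, while Chrm3 and Gda were highest there in each subset. For Eya4, Mab21l2 and Rorb the place of library 1 differed between the subsets. Without the 4 libraries numbered 1, an alternative chosen after seeing the data, the old minus young difference ranged over the genes from 1.70 for Gda to 3.48 for Eya4 in My-HSCs and from 2.10 for Gda to 4.81 for Eya4 in Ly-HSCs, Mab21l2 in My-HSCs aside. In bulk RNA of sorted cells, fewer cells carrying a transcript and less of it per cell cannot be told apart.

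Since age chose the 6 genes, the values of old against young libraries are a description and carry no test. Over all 10900 tested genes, 21 (0.193%) were called higher with age in My-HSCs and 37 (0.339%) in Ly-HSCs (limma, Benjamini-Hochberg adjusted p under 0.05). All 6 genes were higher in each of the 3 old than in each of the 3 young libraries of a subset, in both subsets, as were 11.3% of tested genes in My-HSCs and 11.5% in Ly-HSCs. Outside the 6, the genes called higher in both subsets were Bmpr1a, Cd74 and Plscr2.

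**Figure D1:**
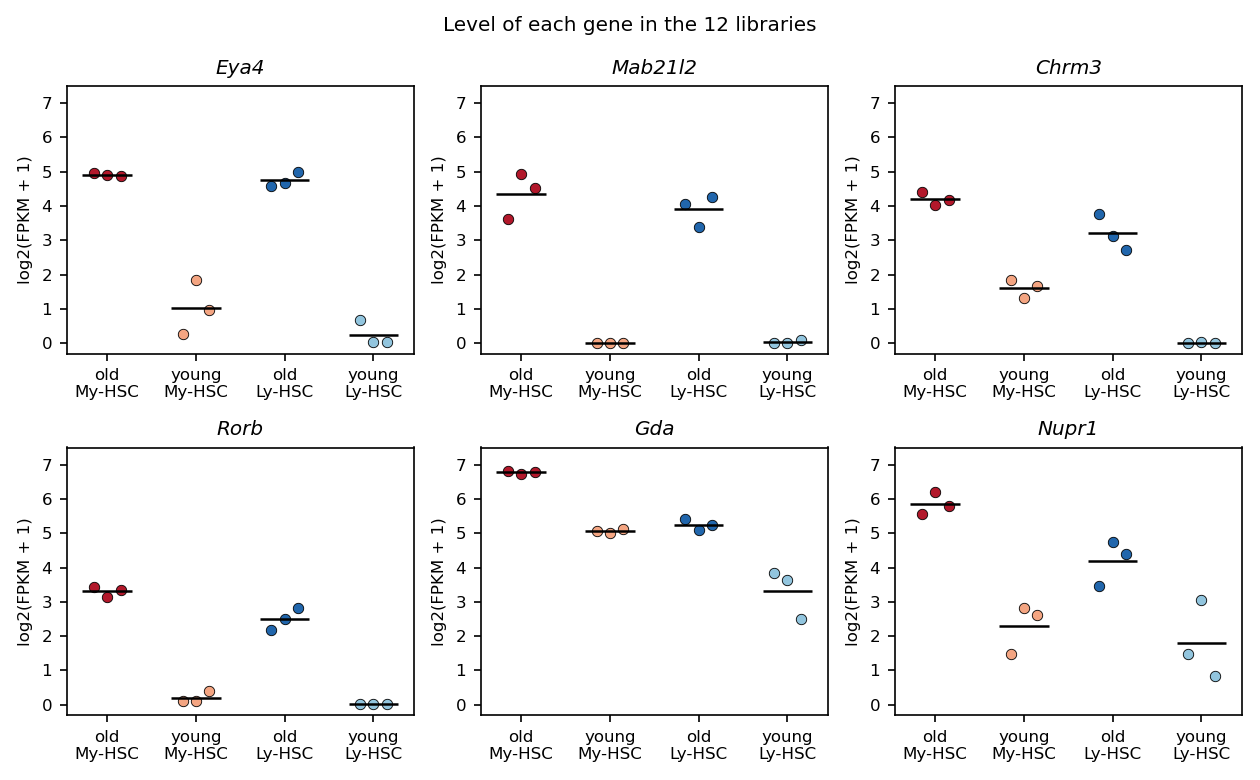
Level of each of the 6 genes as log2(FPKM + 1) in the 12 libraries, with 3 points per group in the order of library 1, 2 and 3 and a bar at the group mean. Eya4, Mab21l2, Chrm3 and Rorb sit near the bottom of the axis in young Ly-HSCs, while young Gda values start at 4.62 FPKM and those of young My-HSCs reach the range of old Ly-HSCs.

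In library order, Eya4 was at 30.1, 28.9 and 28.5 FPKM in old My-HSCs, against 0.195, 2.61 and 0.962 in young My-HSCs. It was at 23.0, 24.7 and 30.9 FPKM in old Ly-HSCs, against 0.584, 0.0184 and 0.0228 in young Ly-HSCs. The 6 old libraries of both subsets lay within one narrow band, and every young library lay far under it. The mean was 29.2 ± 0.839 FPKM in old My-HSCs, a spread of 2.88% of the mean, against 1.26 ± 1.24 in young My-HSCs, and 26.2 ± 4.18 FPKM in old Ly-HSCs against 0.209 ± 0.325 in young Ly-HSCs. The old minus young difference was 3.89 ± 0.47 in My-HSCs and 4.52 ± 0.47 in Ly-HSCs. In old My-HSCs Eya4 exceeded 84.2% to 85.3% of the table's genes, and in young My-HSCs 27.5% to 35.0%.

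Mab21l2 was at 11.3, 29.3 and 21.9 FPKM in old My-HSCs, against 0, 0 and 0 in young My-HSCs. In Ly-HSCs it was at 15.7, 9.43 and 18.2 FPKM in old libraries, against 0, 0 and 0.0572 in young ones. It was thus listed at 0 in 5 of the 6 young libraries, so no fold is given, and its old libraries varied by 43.4% of their mean in My-HSCs and 31.3% in Ly-HSCs. Within old My-HSCs it was lowest in library 1, the one with the most granulocyte marker RNA. Within old Ly-HSCs, where library 1 also had the most, it was lowest in library 2. Mab21l2 is a single-exon gene inside Lrba, a vesicle-traffic gene on the opposite strand, and 1097 of its 3049 bases are also exonic in Lrba. No source used here says how the authors' counting used strand, so reads in those bases cannot be assigned with certainty. Lrba averaged 23.4 ± 0.522 FPKM in old My-HSCs and 19.3 ± 3.63 in young My-HSCs, where Mab21l2 was listed at 0 throughout, and 18.6 ± 3.11 FPKM in old Ly-HSCs against 9.45 ± 1.11 in young Ly-HSCs.

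Chrm3 was at 20.2, 15.2 and 16.9 FPKM in old My-HSCs, against 2.58, 1.50 and 2.15 in young My-HSCs. In Ly-HSCs it was at 12.6, 7.70 and 5.56 FPKM in old libraries, against 0, 0.0174 and 0 in young ones. The receptor gene was therefore measured at a low level in every young My-HSC library but listed at or next to 0 in young Ly-HSCs. The old minus young difference was 2.59 ± 0.44 in My-HSCs. In Ly-HSCs the old libraries spread over a range whose lowest value still lay above the highest young My-HSC value of 2.58 FPKM.

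Rorb was at 9.90, 7.85 and 9.12 FPKM in old My-HSCs, against 0.0730, 0.0765 and 0.331 in young My-HSCs. In Ly-HSCs it was at 3.51, 4.68 and 6.03 FPKM in old libraries, against 0.0137, 0.0138 and 0.00856 in young ones. No group was at 0, but all 6 young values were under 1 FPKM and all 6 old values above 3 FPKM. The old minus young difference was 3.10 ± 0.41 in My-HSCs and 2.48 ± 0.41 in Ly-HSCs.

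Gda was the most abundant of the 6 and was present in every library. It was at 111.6, 104.6 and 109.7 FPKM in old My-HSCs, against 32.5, 30.9 and 34.0 in young My-HSCs. In Ly-HSCs it was at 41.8, 32.9 and 36.7 FPKM in old libraries, against 13.2, 11.4 and 4.62 in young ones. The old mean was 3.35 times the young mean in My-HSCs and 3.81 times in Ly-HSCs, so the gene was raised rather than switched on, and old Ly-HSCs at 37.1 ± 4.48 FPKM overlapped young My-HSCs at 32.5 ± 1.51 FPKM. Old My-HSC values exceeded those of 98.6% to 99.0% of the table's genes.

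Nupr1 was at 46.2, 72.2 and 55.0 FPKM in old My-HSCs, against 1.81, 6.10 and 5.11 in young My-HSCs. In Ly-HSCs it was at 9.93, 26.1 and 20.0 FPKM in old libraries, against 1.79, 7.30 and 0.802 in young ones. The young libraries held it at a low level throughout, and old library 1 was the lowest old library in each subset. The means were 57.8 ± 13.2 FPKM in old My-HSCs against 4.34 ± 2.24 in young My-HSCs, and 18.7 ± 8.16 FPKM in old Ly-HSCs against 3.29 ± 3.50 in young Ly-HSCs. The old minus young difference was 3.54 ± 0.57 in My-HSCs and 2.41 ± 0.57 in Ly-HSCs. With the share of genes at 0 in each library as a covariate, chosen after seeing the data, these became 2.48 in My-HSCs and 0.68 in Ly-HSCs.

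The word "on" describes how the genes were chosen and was not tested. Chrm3, at 1.50 to 2.58 FPKM in young My-HSCs, was measured in each of those libraries. Chrm3, Eya4, Mab21l2 and Rorb were under 3 FPKM in all 6 young libraries and over 3 FPKM in all 6 old ones, as were 7 other tested genes, 1700024P16Rik, Aspa, B3galt1, Bmpr1a, Mars2, Plscr2 and Wwtr1. The bound of 3 FPKM was chosen after the values were seen. No tested gene had the reverse pattern, over 3 FPKM in all young and under 3 in all old libraries. Measured as the lowest old minus the highest young library on the log2(FPKM + 1) scale, the gap was 3.30 for Mab21l2, 2.73 for Eya4, 1.76 for Rorb, 0.87 for Chrm3, 0.40 for Nupr1 and -0.045 for Gda. These are places 1, 2, 4, 13, 38 and 178 among all tested genes, of which 132 were higher in every old than in every young library and 40 lower.

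**Figure D2:**
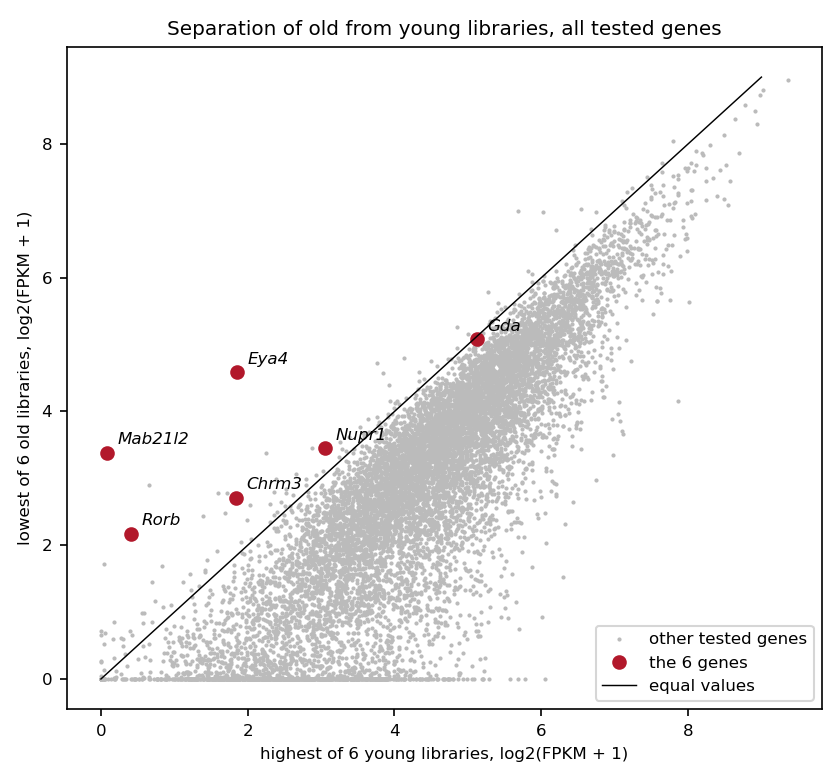
Each point is a tested gene, with the highest of its 6 young libraries on the x axis and the lowest of its 6 old libraries on the y axis, both as log2(FPKM + 1), and the line marks equal values. Mab21l2 and Eya4 stand farthest above the line with gaps of 3.30 and 2.73, and Gda lies on it at -0.045.

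The genes were chosen by age and not by the difference between the 2 subsets, which was tested in 4 comparisons. Even so, the choice favours low values in both young groups and high values in both old groups. It therefore bears on the difference at each age, on the mean of these, and on the difference of age effects. Gda was the one gene of the 6 called, with higher levels in My-HSCs than in Ly-HSCs. Averaged over both ages, the My minus Ly difference of Gda was 1.64 ± 0.21 (95% interval 1.19 to 2.09, limma adjusted p = 0.00493), the 6th smallest p of 10900 genes, with 45 genes (0.413%) called. Every My-HSC library was above every Ly-HSC library of the same age. The call held in all 20 alternative settings, with adjusted p from 0.000994 to 0.0276.

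Within young HSCs, where 13 genes (0.119%) were called, the Gda difference was 1.75 ± 0.30 (1.11 to 2.39, limma adjusted p = 0.0484), a 3.33-fold ratio of means. This call was lost in 16 of 21 alternative settings, in which adjusted p reached 0.437. Among these were leaving out young My-HSC library 1, 2 or 3 (0.124, 0.133 and 0.0896), old My-HSC library 1, 2 or 3 (0.0755, 0.106 and 0.106), or old Ly-HSC library 1, 2 or 3 (0.0554, 0.101 and 0.0963). Within old HSCs, where 3 genes (0.0275%) were called, the Gda difference was 1.53 ± 0.30 (0.89 to 2.17, limma adjusted p = 0.120), a 2.93-fold ratio of means that did not pass the test over all genes. It passed when each group had its own weight (0.0013), when the old groups were fitted alone (0.0109) and without young Ly-HSC library 3 (0.0083). The numbers of old libraries pair them across the subsets by the rule given below. With the library number as a block over all 12 libraries, which also ties young libraries that do not pair, 1 gene was called in place of 3. The limma adjusted p of Gda was then 0.207. A block fit of the paired old libraries alone, chosen after seeing the data, is given at the end.

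Nupr1 and Chrm3 were higher in every old My-HSC library than in every old Ly-HSC library without passing the test over all genes. The Nupr1 difference in old HSCs was 1.65 ± 0.57 (0.42 to 2.89, limma adjusted p = 0.858), 3.09-fold in means, and that of Chrm3 was 0.99 ± 0.44 (0.046 to 1.94, adjusted p = 1.0), 2.02-fold in means. Averaged over both ages the differences were 1.08 ± 0.40 for Nupr1 (0.21 to 1.96, adjusted p = 0.311) and 1.30 ± 0.31 for Chrm3 (0.63 to 1.97, adjusted p = 0.0991). In young HSCs Chrm3 also had no overlap, with a difference of 1.60 ± 0.44 (0.65 to 2.55, adjusted p = 0.144). With a pseudocount of 0.1 in place of 1 the Chrm3 values moved to 4.34 in young HSCs (adjusted p = 0.0446) and 2.71 over both ages (adjusted p = 0.0366), since the young Ly-HSC values next to 0 then weigh more. Young Nupr1 levels overlapped, with a difference of 0.52 ± 0.57 (-0.72 to 1.75, adjusted p = 0.725) that turned negative under quantile normalization.

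Rorb was also higher in every old My-HSC than in every old Ly-HSC library, at 8.96 ± 1.03 against 4.74 ± 1.26 FPKM. The difference was 0.81 ± 0.41 (-0.069 to 1.69, limma adjusted p = 1.0), and in young HSCs it was 0.19 ± 0.41 (-0.69 to 1.07, adjusted p = 0.875), negative under quantile normalization. Eya4 and Mab21l2 overlapped between the old subsets. The differences were 0.16 ± 0.47 for Eya4 (-0.85 to 1.17, adjusted p = 1.0) and 0.45 ± 0.47 for Mab21l2 (-0.57 to 1.47, adjusted p = 1.0). These intervals still allow a difference of about 1 log2 unit in either subset's favour for Eya4. In young HSCs Eya4 overlapped too, with a difference of 0.79 ± 0.47 (-0.22 to 1.80, adjusted p = 0.477) that turned negative under quantile normalization. In all, 4 of the 6 genes were higher in every old My-HSC than in every old Ly-HSC library, against 9.19% of tested genes, and 3 of 6 in young HSCs, against 8.97%. The 3 were Gda, Chrm3, at or next to 0 in young Ly-HSCs, and Rorb, at most 0.331 FPKM in any young library. Because the choice favours low young values, these counts are a description and were not tested.

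The age effect was not shown to differ in size between the subsets for any of the 6. Because the genes were chosen as higher with age in both subsets, this comparison cannot show that the effects are alike. The age difference of My-HSCs less that of Ly-HSCs was 1.14 ± 0.81 for Nupr1 (-0.61 to 2.88), 0.62 ± 0.58 for Rorb, 0.48 ± 0.67 for Mab21l2, -0.22 ± 0.42 for Gda (-1.12 to 0.69), -0.61 ± 0.62 for Chrm3 and -0.63 ± 0.66 for Eya4, with limma adjusted p from 0.920 to 0.973. The sign flipped under quantile normalization for Eya4, with a pseudocount of 0.1 for Rorb and without young Ly-HSC library 3 for Gda. No gene of the 10900 was called in this comparison (0%, limma), and 616 had an unadjusted p under 0.05.

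**Figure D3:**
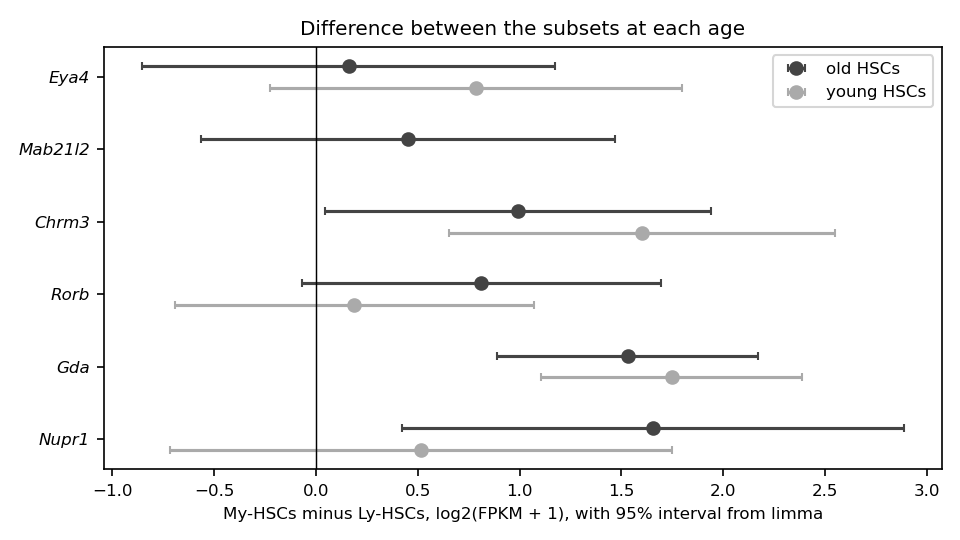
My-HSCs minus Ly-HSCs on the log2(FPKM + 1) scale for each gene in old and in young HSCs, with bars for the 95% interval from limma. The intervals are not adjusted for the number of genes tested. Those of Gda, at 1.53 in old and 1.75 in young HSCs, and of Chrm3, at 0.99 and 1.60, exclude 0 at both ages, and that of Nupr1 does in old HSCs. The Eya4 intervals cross 0 at both ages, and Mab21l2 has no young value because the young libraries are listed at or next to 0.

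The order of the 6 genes by level differed between the groups. In old My-HSCs it ran from Gda at 108.6 ± 3.61 through Nupr1, Eya4 at 29.2, Mab21l2 at 20.9 ± 9.05 and Chrm3 at 17.4 ± 2.51 to Rorb at 8.96 FPKM. The ranges of Mab21l2 and Chrm3 overlapped there, as did those of Mab21l2 and Eya4. In old Ly-HSCs it ran from Gda through Eya4, Nupr1, Mab21l2 at 14.4 ± 4.52 and Chrm3 at 8.63 ± 3.64 to Rorb at 4.74 FPKM, and the ranges of each neighbouring pair from Eya4 down to Rorb overlapped. Over the 6 old libraries Pearson's r between members ran from 0.078 for Eya4 and Chrm3 to 0.876 for Chrm3 and Gda. Those libraries share the subset split and the marker content of their first libraries, so r describes them and was not tested.

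Outside the 6, the genes whose profile over the 12 libraries was closest to the mean standardised profile of the 6 were Plscr2, a phospholipid scramblase gene (r = 0.977), Bmpr1a, a BMP receptor gene (0.962), Trpc1, a cation channel gene (0.953), Il1rapl2, a gene of the interleukin-1 receptor family (0.950), and Rgs18, a regulator of G protein signalling (0.947). This r is carried by the split between old and young libraries, and 17 of 10894 genes exceeded 0.9. Plscr2 was at 25.0, 36.8 and 23.3 FPKM in old My-HSCs against 0, 2.28 and 1.18 in young My-HSCs, and at 5.89, 14.1 and 14.8 FPKM in old Ly-HSCs against 0.0943, 0 and 0 in young Ly-HSCs. Bmpr1a was at 7.70, 9.17 and 9.53 FPKM in old My-HSCs against 0, 0.513 and 0.571 in young My-HSCs, and at 11.1, 6.44 and 6.52 FPKM in old Ly-HSCs against 0.0251, 0.367 and 0 in young Ly-HSCs. In both genes every old library lay above every young library of its subset.

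Taken singly, the members had different closest genes. These were Pcdhb19 (r = 0.976) and Bmpr1a (0.975) for Eya4, Bmpr1a (0.978) and Abi3bp (0.950) for Mab21l2, Wwtr1 (0.976) and Rpn1 (0.938) for Chrm3, and Plscr2 (0.968) and Bmpr1a (0.959) for Rorb. Gda was closest to Clec1a and Cltc (both 0.963), and Nupr1 to Plscr2 (0.950) and Ldha (0.948). Wwtr1, which encodes the coactivator TAZ, was listed at 0 in all 3 young Ly-HSC libraries, where Chrm3 was at 0 in 2 of 3, while it was at 2.99, 1.52 and 1.84 FPKM in young My-HSCs. Clec1a, a C-type lectin receptor gene, was like Gda at 79.2 ± 8.32 FPKM in old My-HSCs against 26.4 ± 1.30 in young My-HSCs, and at 38.6 ± 1.32 FPKM in old Ly-HSCs against 17.2, 5.39 and 2.40 in young Ly-HSCs.

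The 6 lists of related genes are short beside a call rate with age of 0.193% higher in My-HSCs and 0.339% in Ly-HSCs over all tested genes, so a list without a call is near the background. Of 14 listed genes of the EYA, DACH, PAX and sine oculis network 5 were tested and none was called in either age comparison, with 2 of 5 higher in old My-HSCs and 3 of 5 in old Ly-HSCs. The median old minus young difference was -0.078 in My-HSCs and 0.025 in Ly-HSCs, against 0.066 and 0.18 over all tested genes. Eya2, a paralogue of Eya4, was abundant at both ages, at 92.5 ± 11.4 FPKM in old My-HSCs against 103.0 ± 3.65 in young My-HSCs, and at 78.9 ± 5.69 FPKM in old Ly-HSCs against 94.0 ± 15.5 in young Ly-HSCs. Eya1 and Dach1 averaged 24.9 and 29.9 FPKM over the 12 libraries. Among sine oculis genes, the partners through which EYA proteins reach DNA, Six5 was tested and Six3 reached at most 0.0410 FPKM.

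Of the MAB21 family, the Mab21l2 paralogues Mab21l1 and Mab21l3 stayed at or under 0.0490 and 0.321 FPKM in every library. The family genes tested were Mb21d1, which encodes the DNA sensor cGAS, and Mb21d2, and the list also held Tmem173, which encodes STING, the signalling partner of cGAS and no member of the family. None of these was called with age. Tmem173 was at 19.4 ± 4.70 FPKM in old My-HSCs against 10.3 ± 6.83 in young My-HSCs, and at 27.0 ± 1.85 FPKM in old Ly-HSCs against 40.4 ± 18.0 in young Ly-HSCs.

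Chrm3 was the one muscarinic receptor gene that passed the filter on low values, Chrm1 and Chrm4 reaching at most 0.430 and 0.0797 FPKM, while Chrm2 and Chrm5 were not analysed here. Of 30 listed acetylcholine and Gq signalling genes 14 were tested and none was called with age, with 8 higher in old My-HSCs and 9 in old Ly-HSCs and medians of 0.099 and 0.27. The downstream parts of the M3 route were present at both ages. Itpr1, the inositol trisphosphate receptor of calcium stores, was at 42.8 ± 1.19 FPKM in old My-HSCs against 38.2 ± 2.94 in young My-HSCs, and Plcb4, a phospholipase C, at 37.5 ± 1.13 against 42.4 ± 6.47. In Ly-HSCs Itpr1 was at 37.0 ± 0.829 FPKM in old against 33.2 ± 11.0 in young libraries. Gna15, a Gq-class G protein, was at 16.2 ± 5.27 FPKM in old My-HSCs against 44.3 ± 17.7 in young My-HSCs (limma adjusted p = 0.685). In Ly-HSCs Gna15 was at 41.1 ± 6.88 FPKM in old against 43.8 ± 32.3 in young libraries.

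Of 19 listed ROR and clock genes 17 were tested and none was called with age, with 13 higher in old My-HSCs and 11 in old Ly-HSCs and medians of 0.45 and 0.24. Rora, the nearest relative of Rorb by family, was at 10.4 ± 1.64 FPKM in old My-HSCs against 7.70 ± 3.21 in young My-HSCs, and at 9.02 ± 2.29 FPKM in old Ly-HSCs against 4.98 ± 3.24 in young Ly-HSCs. Rora was called in none of the 6 comparisons. Hlf, a clock-related factor of HSCs, averaged 114.6 FPKM over all libraries and Per2 17.1 FPKM, without a call.

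Of 32 listed purine genes 28 were tested and none was called with age, with 17 higher in old My-HSCs and 13 in old Ly-HSCs and medians of 0.15 and -0.032. Ampd3, an AMP deaminase gene, was called between the subsets. It was at 21.3 ± 4.34 FPKM in old My-HSCs against 8.18 ± 2.19 in old Ly-HSCs, and at 19.1 ± 2.06 FPKM in young My-HSCs against 6.67 ± 2.10 in young Ly-HSCs, a My minus Ly difference over both ages of 1.36 ± 0.24 (limma adjusted p = 0.0316). Leaving out any 1 of the 9 old or young My-HSC or old Ly-HSC libraries ended the Ampd3 call, with adjusted p from 0.0596 to 0.119. Impdh2, Paics and Nt5c2, of guanine nucleotide synthesis, purine synthesis and nucleotide breakdown, were the most abundant of the list, averaging 68.2, 66.0 and 52.9 FPKM over all libraries.

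Of 26 listed genes of the integrated stress response and NUPR1 partners 20 were tested, and none was called in the age comparisons. In old My-HSCs 14 were higher and in old Ly-HSCs 12, with medians of 0.43 and 0.11. The most abundant were Eif2ak2, the kinase PKR, Phgdh, of serine synthesis, and Ddit3, which encodes CHOP. Ddit3 was at 48.7 ± 5.50 FPKM in old My-HSCs against 44.3 ± 6.70 in young My-HSCs, and at 47.4 ± 3.79 FPKM in old Ly-HSCs against 32.0 ± 7.57 in young Ly-HSCs. Of the 20 tested, 4 in each subset had an unadjusted limma p under 0.05 with age. Over all 10900 tested genes 786 did in My-HSCs and 1450 in Ly-HSCs. The purine list had 5 of 28 in My-HSCs and 6 in Ly-HSCs, and the ROR and clock list 2 of 17 and 4. The other lists had 0 or 1 in each subset.

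Rorb and Gda lie 2.362 Mb apart by their starts, and the interval between them holds 4 further genes of the table, 3 of them tested. Aldh1a1, which encodes a retinaldehyde dehydrogenase long used as a stem cell marker, was at 137.8, 243.3 and 187.4 FPKM in old My-HSCs against 37.5, 50.4 and 40.1 in young My-HSCs. In Ly-HSCs it was at 126.6, 163.3 and 160.1 FPKM in old against 29.8, 5.89 and 13.8 in young libraries. The old and young values of Aldh1a1 did not overlap in either subset. The old minus young difference was 3.36 ± 0.41 in Ly-HSCs (limma adjusted p = 0.00424), which was called, and 2.10 ± 0.41 in My-HSCs (adjusted p = 0.0615), which was not. The Ly-HSC call was lost when the Ly-HSC groups were fitted alone (0.276) and with the share of genes at 0 as a covariate (0.118), and held in the other 19 alternatives. The My-HSC difference was called with group weights (0.00433), with the My-HSC groups alone (0.00997), and without young Ly-HSC library 1 (0.00902) or 2 (0.0141).

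The other tested genes between Rorb and Gda were not called. Zfand5, next to Gda, was at 83.4 ± 9.39 FPKM in old My-HSCs against 71.7 ± 8.58 in young My-HSCs (difference 0.22 ± 0.21, limma adjusted p = 0.941), and the difference in Ly-HSCs was 0.18 ± 0.21 (adjusted p = 0.743). Aldh1a7, a near copy of Aldh1a1 with which reads may be shared, was at 5.41, 0 and 0 FPKM in old My-HSCs against 0, 0 and 3.12 in young My-HSCs, and its differences were not called (adjusted p = 0.993 in My-HSCs and 0.753 in Ly-HSCs). Tmc1 was under the filter, with at most 2.15 FPKM in old and 0.0514 FPKM in young libraries. The interval was looked at because 2 of the 6 genes fall on one chromosome, and no test of clustering was made.

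**Figure D4:**
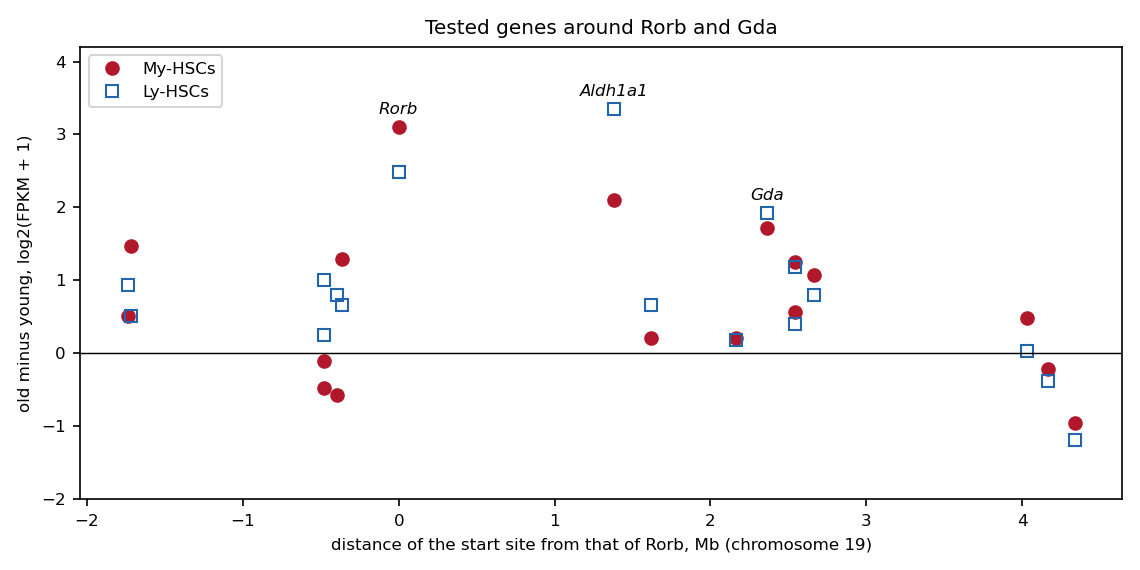
Old minus young difference on the log2(FPKM + 1) scale for each tested gene around Rorb and Gda on chromosome 19, by the distance of its start from that of Rorb in Mb, with filled circles for My-HSCs and open squares for Ly-HSCs. Rorb at 0, Aldh1a1 and Gda at 2.362 Mb carry the highest values, with Zfand5 between Aldh1a1 and Gda at 0.22 in My-HSCs and 0.18 in Ly-HSCs.

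Around all 6 genes, the table holds 97 other genes that start within 1 Mb, 83 of them tested. In My-HSCs 41 of the 83 were higher in old libraries and none was called, with a median difference of -0.015, against 55.8% higher, 0.193% called higher and a median of 0.066 over all tested genes. In Ly-HSCs 53 were higher and 2 were called, with a median of 0.32, against 62.4% higher, 0.339% called higher and a median of 0.18 over all tested genes. The count of higher neighbours in Ly-HSCs is near that overall share. The 2 were Aldh1a1, near Gda, and Sult1a1, a sulfotransferase gene 45.6 kb from Nupr1. Sult1a1 was at 90.5, 81.5 and 77.6 FPKM in old Ly-HSCs against 27.1, 3.79 and 13.8 in young Ly-HSCs (difference 2.74 ± 0.52, limma adjusted p = 0.0462), and its call held in 4 of 21 alternatives. Of the 9 My-HSC and old Ly-HSC libraries, leaving out each 1 but young My-HSC library 1 ended it, with adjusted p from 0.0699 to 0.201. In My-HSCs Sult1a1 was at 248.0 ± 50.9 FPKM in old against 82.9 ± 53.2 in young libraries (adjusted p = 0.384). All 6 tested neighbours of Gda were higher in old than in young means in both subsets, while of the 61 near Nupr1 29 were higher in My-HSCs and 37 in Ly-HSCs. The nearest neighbours, Tbpl1 and Slc18b1 of Eya4, Lrba and Dclk2 of Mab21l2, Zmynd11 of Chrm3, Trpm6 of Rorb, Zfand5 and 1110059E24Rik of Gda, and Cln3 and Sgf29 of Nupr1, were not called with age in either subset.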

How the data were processed

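RNA-seq values of 12 libraries were used as FPKM, deposited by the authors in 1 table of 14143 genes, per the file headers and labels. Tools named, with no role, are STAR, DESeq2 and bcl2fastq 2.17, and the build is mm10 (GRCm38), per the submitters' processing notes. Per the labels' protocols, the library kit was KAPA stranded mRNA-seq with paired-end reading. No source used here gives the annotation, the strand setting or how multi-mapped reads were treated. FPKM keeps no read total, so depth, intervals from counts and the floor behind a 0 are unknown.

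Genes with an FPKM of at least 1 in at least 3 libraries (10900) were analysed as log2(FPKM + 1), which understates changes of low genes. A model with 1 mean per group was fitted to the 12 libraries in limma 3.58.1 (R 4.3.3, trend in the prior variance, 8 residual and 5.11 prior degrees of freedom), with two-sided tests and Benjamini-Hochberg adjustment over all genes of each of 6 comparisons, and an adjusted p under 0.05 was called. P-values measure the spread between libraries of a group, each from an independent group of mice per the labels. The old libraries paired by number across the subsets, as given below, and the main fit leaves this pairing out. Its My minus Ly p-values thus treat paired old libraries as independent. The fit was tested on simulated data.

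The 6 genes and all lists were chosen with earlier results of these data known. Named besides the 6 were, of each list, the genes called in any comparison and otherwise up to 3 of the highest mean, the genes of closest profile, the nearest neighbours within 1 Mb and the genes between Rorb and Gda. Rora, Slamf1, Six5, Lrba and the relatives under the filter were added after their values were seen. Some results on list genes are not reported here. Promoters come from the RefSeq table (GRCm38.p6) and gene positions from GENCODE M21, matched by identifier, with all 6 found. Replicate numbers were checked for pairing by the correlation across genes of deviations from group means. It was 0.256, 0.233 and 0.21 for same-numbered old My-HSC and Ly-HSC libraries, so these pair by the rule of every pair over 0.1, and 0.0482, 0.0026 and 0.00233 for young ones, which do not. Of the old libraries with unlike numbers, My-HSC library 3 and Ly-HSC library 2 also passed that bound, at 0.106, and the others ran from -0.218 to 0.0753. Alternatives covered the pseudocount, filter, scaling, group weights, replicate block, groups fitted and each library left out.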

Additional observations from a re-analysis of the deposited data

How the results depend on the processing

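Of the genes described, the mean My minus Ly difference of Gda was called in all 20 alternatives. Directions reversed, without a call, for the young My minus Ly difference under quantile normalization (Eya4 -0.10, Rorb -0.52, Nupr1 -0.085) and, for Nupr1, with the share of genes at 0 as a covariate (-0.48), and for the difference of age effects between subsets (Eya4 0.29 under quantile normalization, Rorb -0.15 with a pseudocount of 0.1, Gda 0.20 without young Ly-HSC library 3, its lowest with 1 library left out being -0.47). Quantile normalization gave a median old minus young difference of all genes in Ly-HSCs of 0.028, in place of 0.18. The pseudocount of 0.1 raised the Ly-HSC differences of low genes, as to 5.40 for Rorb.

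Counts of called genes depended on the settings, and the cause was not tested. The 3 genes called between old subsets became 1 with a pseudocount of 0.1, 29 without the filter, 69 with group weights, 1 with the replicate block, 12 with the old groups alone, and 0 to 6 with 1 library left out. The 13 called between young subsets became 22, 2, 0 (724 at an unadjusted p under 0.05), 4 and 0 (780) under those settings, and 0 to 299 with 1 library left out, the highest without young Ly-HSC library 2. The 45 called over both ages became 69 without the filter and 15 to 111 with 1 library left out. The 0 called for the difference of age effects became 6 without the filter and stayed at 0 in the fits with 1 library left out. The 23 called with age in My-HSCs became 1, 56, 71, 9 and 36 under the 5 settings above, and 0 to 36 with 1 library left out. The 38 called with age in Ly-HSCs became 15 under quantile normalization, 24 under median-of-ratios scaling, 9 with group weights, 15 with the replicate block, 0 with the Ly-HSC groups alone (950 at an unadjusted p under 0.05), and 7 to 224 with 1 library left out.

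Alternatives chosen after seeing the data were the share of genes at 0 as a covariate, leaving out the 4 libraries numbered 1, and a block fit of the old libraries. With that covariate the counts were 1 between the old subsets, 1 between the young subsets, 16 over both ages, 1 with age in My-HSCs and 0 in Ly-HSCs (1282 at an unadjusted p under 0.05). Without the 4 libraries they were 0 between old subsets (505), 30 between young subsets, 0 with age in My-HSCs (895) and 11 in Ly-HSCs. That block fit, of the 6 paired old libraries alone, gave Gda an adjusted p of 0.0533. The young Gda call was lost with the replicate block too (0.0745), where the numbers do not pair the libraries.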
